A study of Mus musculus with 24 samples.

Results

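Brain endothelial cells from mice with and without the clock gene Bmal1 were compared at ZT6, the middle of the light phase, and at ZT18, the middle of the dark phase (ZT, zeitgeber time, hours after lights on). The comparison holds 8 of the 24 libraries of the study, all those collected at ZT6 or ZT18: 4 from Bmal1fl/fl control mice and 4 from Bmal1fl/fl; Tie2cre mutant mice, 2 mice of each genotype at each time. Every mouse was C57BL/6J, carried the floxed Bmal1 allele and was kept in 12 h of light and 12 h of dark, so that the mutants differed from the controls by the Cre transgene. The Tie2 promoter drives Cre in endothelial cells and is also known to be active in blood cell lineages, so that deletion is not confined to the brain endothelium. Each library was made from CD31-sorted cells of a single mouse, and the 8 libraries share 1 i5 index sequence. The controls of ZT2 and ZT10 carry that index too, while the other 12 libraries carry another. Ages and sexes of the individual mice are not in the labels.

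BMAL1 pairs with CLOCK or NPAS2, and the pair binds E-box sequences to switch on the genes of its own repressors, the period and cryptochrome genes, and those of the nuclear receptors REV-ERBα (Nr1d1) and REV-ERBβ (Nr1d2). REV-ERB proteins in turn repress Bmal1, Npas2 and Cry1 at ROR elements, which closes a further loop. The proteins encoded by Dbp, Tef and Hlf are activators that carry the rhythm to output genes through D-box sequences. In a cell without BMAL1 the direct E-box targets lose their driver, and the genes that REV-ERB represses lose their repressor.

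The values are normalized reads per gene, deposited as whole numbers that sum to 6136404 to 6217357 in the 8 libraries. Of 53465 genes listed, 15493 passed the filter of the study, which asks for 5 reads in 6 or more mice of 1 genotype over the whole series. Markers of endothelial cells took 2.17% to 2.58% of the reads in the 8 libraries and those of microglia 0.025% to 0.0448%, against 1.36% to 2.14% and 0.221% to 0.603% in the other 16. The level of Xist, transcribed from the inactive X chromosome of females, was high in 3 of the 4 libraries labelled control and in 1 of the 4 labelled mutant, and the Y-linked genes Ddx3y, Eif2s3y, Kdm5d and Uty showed the reverse, so that sex and genotype are unevenly crossed in this comparison.

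The 8 libraries were placed first on genes that they had no part in choosing. In the 16 libraries of ZT2, ZT10, ZT14 and ZT22, 28 genes differed between genotypes at an adjusted p under 0.05 (edgeR's quasi-likelihood test, time point as a factor), 6 of them core clock or clock output genes. At ZT2 and ZT10 the controls and mutants carry different i5 indices, so that index and genotype cannot be told apart there, and the fit holds no term for it. Of these 28 genes, the libraries labelled mutant were nearer to the mutant mean of the 16 for 8 and 25 genes at ZT6 and for 28 and 28 at ZT18, replicate 1 first. Those labelled control were nearer to the mutant mean for 10 and 13 genes at ZT6 and for 9 and 25 at ZT18. In the 16 libraries themselves the count ran from 0 to 12 in controls and from 24 to 28 in mutants. Hence the library labelled control ZT18 replicate 2 lay among the mutants and the library labelled mutant ZT6 replicate 1 among the controls. Without the clock genes these 2 were nearer to the mutant mean for 21 and 6 of 22 genes. On the same 22 genes the ZT6 controls were nearer to it for 10 and 13, and control ZT18 replicate 1 for 8. The controls of the 16 were at 0 to 9, so that control ZT6 replicate 2 also lay on the mutant side for most of these genes. The means were also taken from the 8 libraries of ZT14 and ZT22 alone, where both genotypes carry the same index. The 28 genes were still those chosen in all 16 libraries, so that the index could bear on their choice. The 2 libraries placed against their labels were then nearer to the mutant mean for 24 and 6 of the 28 genes. The other 6 were nearer to it for 8, 12 and 9 (controls) and 25, 28 and 28 (mutants). Those 8 libraries by themselves called 2 genes, both among the 28, for which the pair were nearer to the mutant mean at 2 and 0. The labels were kept as deposited. Results are given with all 8 libraries, and those of many named genes are also given without these 2. Among the 28 are Npas2, Cry1, Per3, Hlf, Nr1d1, Nr1d2, Mmp15, Npnt, Rftn2, Ret, Cdkn1a, Plat, Cnnm2, Fmo2, Gkn3 and Bche, which are named again with their values. On these the place of the 2 libraries, and any gain from leaving them out, follow from how the libraries were chosen and are no separate evidence. For Nr1d1 the fold change was smaller without the 2 libraries. Whether the 2 libraries were exchanged, and with what, was not tested.

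**Figure D1:**
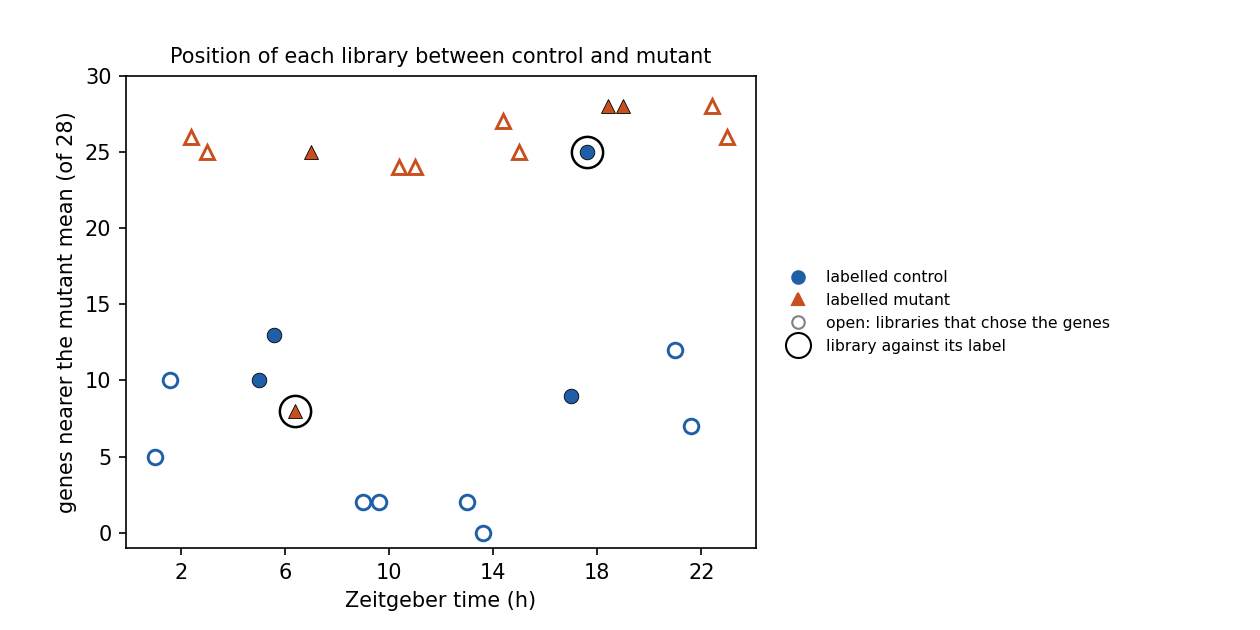
Number of the 28 genotype-associated genes, out of those called in the libraries of ZT2, ZT10, ZT14 and ZT22, for which each library lay nearer to the mutant than to the control mean, by zeitgeber time in hours. Circles are libraries labelled control, triangles those labelled mutant, open symbols the 16 libraries that chose the genes, and black rings the 2 libraries that lay with the other genotype, at 25 and 8 genes.

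The targeted gene gave no clear check of the labels. Arntl, the gene symbol of Bmal1 (chromosome 7, 113207465 to 113314126, plus strand, GRCm38), had 99 and 57 reads at ZT6 and 267 and 261 at ZT18 in the libraries labelled control. Those labelled mutant had 81 and 276 reads at ZT6 and 286 and 231 at ZT18. The values are counts over the whole gene, in which the deleted exon cannot be seen, and the mutant transcript is still counted. At ZT6 the library labelled mutant replicate 1 was at the control level, and at ZT18 the groups overlapped (log2 fold change over both times 0.57 ± 0.31, SE, adjusted p 0.939).

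Over both times 3 genes differed between genotypes with edgeR and all 8 libraries as labelled, and all 3 were lower in mutants: Nr1d1, Nr1d2 and Dbp. These are 0.0194% of the genes tested, and the share that was higher in mutants was 0%. All 3 are direct clock targets that lie on chromosomes 11, 14 and 7. Without the adjustment 859 genes, 5.54% of those tested, had a p under 0.05, 415 higher and 444 lower. The median log2 fold change of all genes was -0.01. With the summed level of the Y-linked genes as a covariate, 0 genes passed, and the adjusted p was 0.0849 for Nr1d1, 0.0849 for Nr1d2 and 0.174 for Dbp, with log2 fold changes of -3.16, -2.14 and -2.0. DESeq2 gave an adjusted p of 0.0352 for Nr1d1, 0.0604 for Nr1d2 and 0.058 for Dbp. It called 21 genes over both times, 12 higher and 9 lower.

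Nr1d1 had 1765 and 990 reads at ZT6 and 43 and 282 at ZT18 in the libraries labelled control, and 20 and 198 at ZT6 and 19 and 12 at ZT18 in those labelled mutant. Within each time point every library labelled control was above every library labelled mutant, although 1 of the 2 ZT18 controls, at 43 reads, lay in the range of the mutants at ZT6. The difference was 11.6-fold (log2 fold change -3.54 ± 0.46, SE, adjusted p 0.00033). With 1 library left out at a time, the log2 fold change ran from -4.54 (without mutant ZT6 replicate 2) to -3.03 (without mutant ZT6 replicate 1). The 282 reads are those of control ZT18 replicate 2 and the 20 those of mutant ZT6 replicate 1. For Nr1d1 these 2 libraries thus lay on the side of their labels within their time points. Without them the difference was smaller, at 5.25-fold (log2 fold change -2.39 ± 0.31, adjusted p 7.10e-05).

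Nr1d2 had 1252 and 1199 reads at ZT6 and 338 and 258 at ZT18 in the libraries labelled control. Those labelled mutant had 534 and 105 reads at ZT6 and 51 and 79 at ZT18, and the value of 534 came from the library that lay with the controls. The groups again did not overlap within a time point (log2 fold change -2.02 ± 0.29, SE, adjusted p 0.00105). Without the 2 libraries all 3 controls were above all 3 mutants, by 7.84-fold (log2 fold change -2.97 ± 0.24, adjusted p 1.13e-07).

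Dbp, which encodes a D-box activator, had 1197 and 861 reads at ZT6 and 68 and 159 at ZT18 in the libraries labelled control, and 87 and 216 at ZT6 and 42 and 56 at ZT18 in those labelled mutant. Its level was thus high in the ZT6 controls and low in the other 6 libraries (log2 fold change -2.06 ± 0.31, SE, adjusted p 0.00164). Without the 2 libraries the difference was 2.85-fold (log2 fold change -1.51 ± 0.31, adjusted p 0.018).

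**Figure D2:**
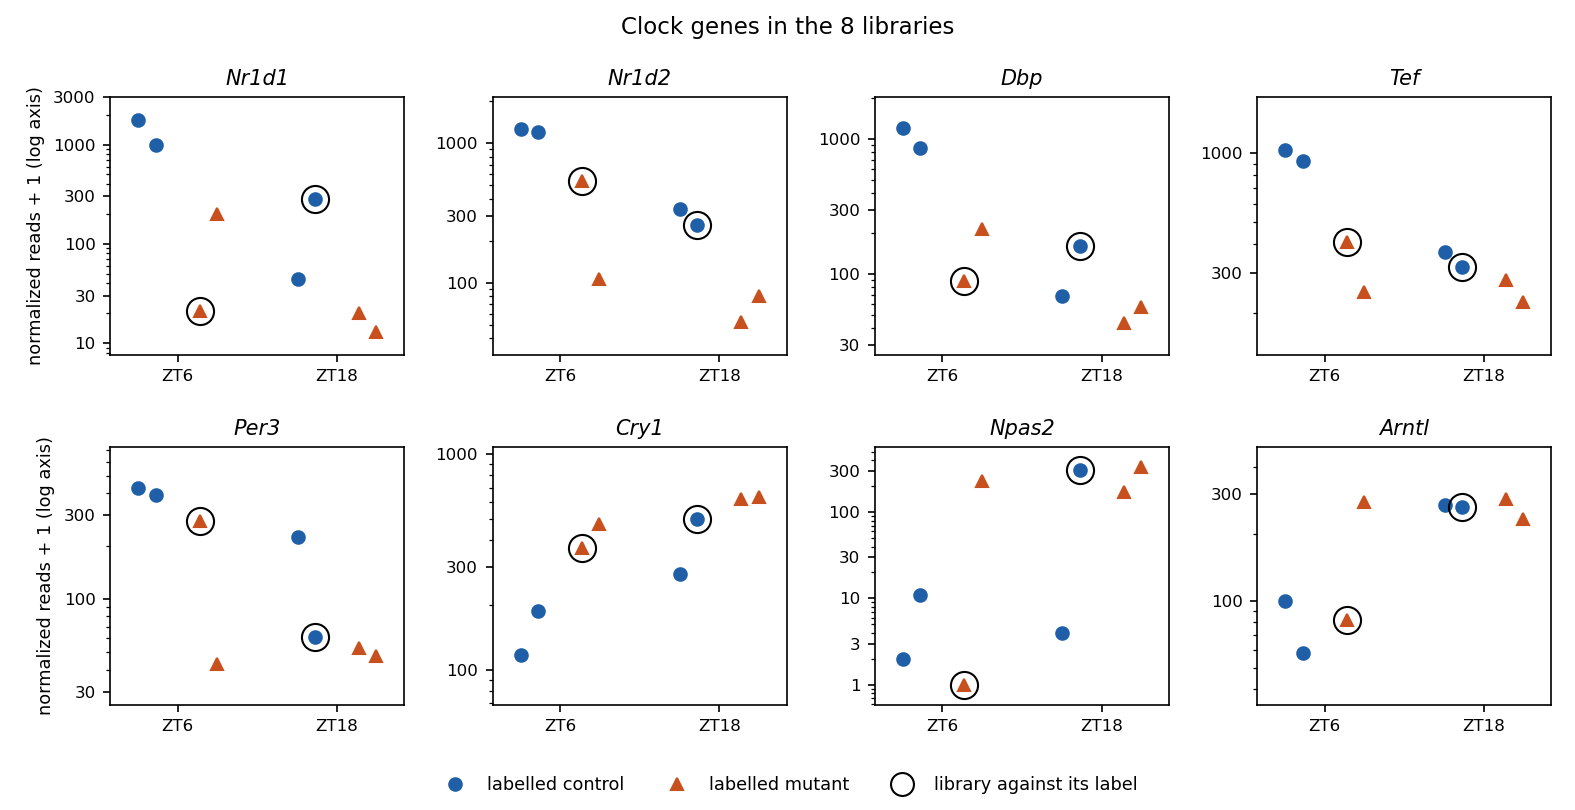
Normalized reads plus 1 (log axis) of 8 clock genes in each library at ZT6 and ZT18, with circles for libraries labelled control, triangles for those labelled mutant and rings around the 2 libraries that lay with the other genotype. Nr1d1, Nr1d2 and Dbp were lower in the triangles at both times, while for Per3 and Npas2, which are among the 28 genes that placed the libraries, the ringed symbols sit with the other genotype.

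The promoters of these genes are shown because BMAL1 acts through the E-box. The sequences are from RefSeq (GRCm38.p6), cover 250 bases before to 50 after a start site, and carry in capitals any E-box (CACGTG), E'-box (CACGTT), D-box (TTATGTAA or TTACGTAA) or ROR element (TAGGTCA) on either strand. The Nr1d1 promoter (chr11:98775328-98775627, minus strand) holds an E'-box that begins 28 bases before the start site. The first Tef promoter (chr15:81802423-81802722, plus strand) holds an E-box that begins 127 bases before its start, and the second (chr15:81811164-81811463) has one at 138 bases.
Nr1d1: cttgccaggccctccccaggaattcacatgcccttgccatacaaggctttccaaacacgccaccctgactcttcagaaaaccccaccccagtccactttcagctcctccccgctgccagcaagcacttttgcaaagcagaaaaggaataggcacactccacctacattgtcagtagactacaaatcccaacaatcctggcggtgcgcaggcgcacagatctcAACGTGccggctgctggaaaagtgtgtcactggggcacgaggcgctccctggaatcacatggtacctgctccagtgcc
Tef, first start: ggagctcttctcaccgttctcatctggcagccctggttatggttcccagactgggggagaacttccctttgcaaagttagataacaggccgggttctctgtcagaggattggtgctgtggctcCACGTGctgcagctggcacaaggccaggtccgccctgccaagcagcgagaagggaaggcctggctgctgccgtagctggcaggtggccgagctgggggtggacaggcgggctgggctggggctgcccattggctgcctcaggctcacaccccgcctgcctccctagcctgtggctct
Tef, second start: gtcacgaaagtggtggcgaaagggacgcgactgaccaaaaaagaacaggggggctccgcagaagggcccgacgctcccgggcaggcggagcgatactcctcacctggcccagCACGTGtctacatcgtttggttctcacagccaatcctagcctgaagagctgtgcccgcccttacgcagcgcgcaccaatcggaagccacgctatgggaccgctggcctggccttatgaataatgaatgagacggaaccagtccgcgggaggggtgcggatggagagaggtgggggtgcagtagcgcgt
Of 32851 promoters of this length, 7.15% held the E-box, 4.68% the E'-box, 1.06% a D-box and 2.61% the ROR element. The Dbp promoter (chr7:45704997-45705296, plus strand) and the Nr1d2 promoter (chr14:18239057-18239356, minus strand) held none of these letters in this window, which leaves the rest of each gene unread.

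At ZT6 alone 4 genes, 0.0258% of those tested, differed and were lower in mutants: Dbp, Nr1d1, Tef and Ttr. Dbp was 6.7-fold lower (log2 fold change -2.74 ± 0.37, SE, adjusted p 0.00112) and Nr1d1 12.6-fold (log2 fold change -3.65 ± 0.62, adjusted p 0.019). Tef, a relative of Dbp, had 1032 and 926 reads in the libraries labelled control and 407 and 245 in those labelled mutant (log2 fold change -1.55 ± 0.25, adjusted p 0.0181). The 4 calls did not hold without control ZT6 replicate 1, at log2 fold changes of -2.47 for Dbp, -3.16 for Nr1d1, -1.45 for Tef and -1.08 for Ttr. Those of Tef and Ttr did not hold without control ZT6 replicate 2 (-1.64 and -1.43) or mutant ZT6 replicate 2 (-1.2 and -0.87) either. Ttr also lost its call without either ZT18 control, at -1.27 each time. Nr1d1 was at -6.04 without mutant ZT6 replicate 2 and at -2.8 without mutant ZT6 replicate 1. Each of these fits leaves a single library in 1 group. Of the 4, Dbp alone passed with the filterByExpr filter of edgeR, with a spread shared by all 24 libraries and with the Y-linked level as a covariate (adjusted p 0.393 for Nr1d1, 0.212 for Tef and 0.195 for Ttr in the last, at log2 fold changes of -3.23, -1.42 and -1.38). DESeq2 kept Dbp and Tef but gave 0.482 for Nr1d1 and 0.432 for Ttr, at -3.65 and -1.25.

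Ttr encodes transthyretin, the main product of the choroid plexus. It had 6774 and 5412 reads at ZT6 in the libraries labelled control against 3201 and 1730 in those labelled mutant (log2 fold change -1.27 ± 0.23, adjusted p 0.0351). At ZT18 it had 3132 and 3460 against 3035 and 4948. Ttr is 1 of the 6 markers fixed for fibroblasts and choroid plexus and made up 84.4% to 96.3% of their reads in the 8 libraries. The other 5, which are fibroblast genes apart from Folr1, together had 258 and 336 reads in the ZT6 controls and 349 and 320 in the ZT6 mutants, which overlap. At ZT18 they had 221 and 281 in controls and 314 and 349 in mutants. Other choroid plexus genes, read after the data were seen, were lower in both ZT6 mutants. Enpp2, which encodes autotaxin, had 7536 and 5330 reads in the ZT6 controls and 4313 and 2514 in the ZT6 mutants (log2 fold change -0.88 ± 0.21, adjusted p 0.298), and 3691 and 4073 against 3909 and 4901 at ZT18. Clic6 had 257 and 224 against 123 and 110 at ZT6, Folr1 had 54 and 52 against 10 and 40, and Kcnj13 had 71 and 33 against 14 and 9, with adjusted p of 0.933, 0.983 and 0.953. The part of choroid plexus RNA in the Ttr result was not tested. The summed pericyte and smooth muscle markers took 0.263% and 0.364% of the reads in the ZT6 controls against 0.419% and 0.39% in the ZT6 mutants. At ZT18 they took 0.423% and 0.411% against 0.351% and 0.421%. Over both times 4 of these 12 markers were higher and 0 lower at an unadjusted p under 0.05 (edgeR). The part of these cells in the ZT6 differences was not tested.

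At ZT18 alone, 0 genes passed (0%) with edgeR's quasi-likelihood test as labelled, 717 had an unadjusted p under 0.05 and DESeq2 called 3. Nr1d1 was 10.2-fold lower (log2 fold change -3.35 ± 0.73, SE, adjusted p 0.217) and Nr1d2 4.53-fold (log2 fold change -2.18 ± 0.44, adjusted p 0.193). The direct test of whether the genotype difference was unequal at ZT6 and ZT18 called 0 genes by edgeR and 0 by DESeq2, with 693 at an unadjusted p under 0.05. For Dbp, with a difference of -2.74 at ZT6 and -1.18 ± 0.39 at ZT18 on the log2 scale, the test of that inequality had an adjusted p of 0.991.

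The 24 core clock and clock output genes passed the filter, and 3 were called over both times. At an unadjusted p under 0.05 there were 14 of 24 (58.3%, 6 higher and 8 lower), against 5.54% of all genes. The median log2 fold change was 0.17 for the 12 core clock genes and -0.36 for the 12 output genes.

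On the positive limb of the clock, Npas2 encodes a relative of CLOCK that can take its place beside BMAL1. It had 1 and 10 reads at ZT6 and 3 and 305 at ZT18 in the libraries labelled control, and 0 and 229 at ZT6 and 170 and 331 at ZT18 in those labelled mutant. The 305 and the 0 are the 2 libraries that went against their labels. As labelled the log2 fold change was 2.10 ± 0.88 (SE, adjusted p 0.866), and without them it was 5.69 ± 0.53 (adjusted p 7.58e-07). Clock had 1020 to 1292 reads in controls and 1325 to 1365 in mutants apart from 1218 in mutant ZT18 replicate 1 (log2 fold change 0.17 ± 0.13, adjusted p 0.989).

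Among the repressors, Per3 had 425 and 389 reads at ZT6 and 223 and 60 at ZT18 in the libraries labelled control. Those labelled mutant had 277 and 42 at ZT6 and 52 and 47 at ZT18. The log2 fold change was -1.40 ± 0.38 (SE, adjusted p 0.318) as labelled and -2.70 ± 0.31 (adjusted p 1.87e-05) without the 2 libraries. Cry1, a repressor that REV-ERB holds down, had 116 and 187 reads at ZT6 and 276 and 501 at ZT18 in the libraries labelled control and 365 and 473 at ZT6 and 622 and 633 at ZT18 in those labelled mutant. Within each time point the mutants were above the controls, with a difference of 2.13-fold (log2 fold change 1.09 ± 0.21). The difference narrowly missed the threshold with edgeR (adjusted p 0.0529) and passed with DESeq2 (adjusted p 0.0152). Without the 2 libraries it was 2.66-fold (adjusted p 0.000455). Per1, with 870 to 1360 reads in controls and 1215 to 1699 in mutants, Per2, with 147 to 326 and 203 to 491, and Cry2, with 223 to 349 and 263 to 461, did not pass in either fit, nor did the activator Rora, with 625 to 717 and 539 to 740. The direction of Per2 turned, from a log2 fold change of 0.17 ± 0.26 (SE) as labelled to -0.48 ± 0.22 without the 2 libraries. There all remaining controls were above all remaining mutants.

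Among the outputs, Hlf, the third of the D-box activators, had 390 and 329 reads at ZT6 and 322 and 174 at ZT18 in the libraries labelled control and 251 and 167 at ZT6 and 191 and 132 at ZT18 in those labelled mutant. Its log2 fold change was -0.68 ± 0.23 (SE, adjusted p 0.712) as labelled and -1.05 ± 0.23 (adjusted p 0.0373) without the 2 libraries. Tef over both times gave -1.01 ± 0.21 (adjusted p 0.0814 with edgeR, 0.0352 with DESeq2) and -1.28 ± 0.25 (adjusted p 0.01 with edgeR). Bhlhe41, which encodes the repressor DEC2, was the clock gene whose 4 libraries of each label did not overlap, with 22 to 85 reads in controls and 6 to 20 in mutants (log2 fold change -1.68 ± 0.75, adjusted p 0.866). Nfil3, the repressor at D-boxes, had 4 to 102 reads in controls and 43 to 110 in mutants (adjusted p 0.866). Ciart (26 to 211 against 38 to 72), Usp2 (37 to 76 against 7 to 72), Wee1 (37 to 112 against 54 to 96), Por (518 to 763 against 523 to 648), Nampt (1383 to 2099 against 1299 to 1544), Bhlhe40 (1806 to 2145 against 1573 to 1808) and Tsc22d3 (1402 to 2296 against 1824 to 2504) did not pass. The log2 fold change of Ciart was -0.77 as labelled and -0.23 without the 2 libraries.

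**Figure D3:**
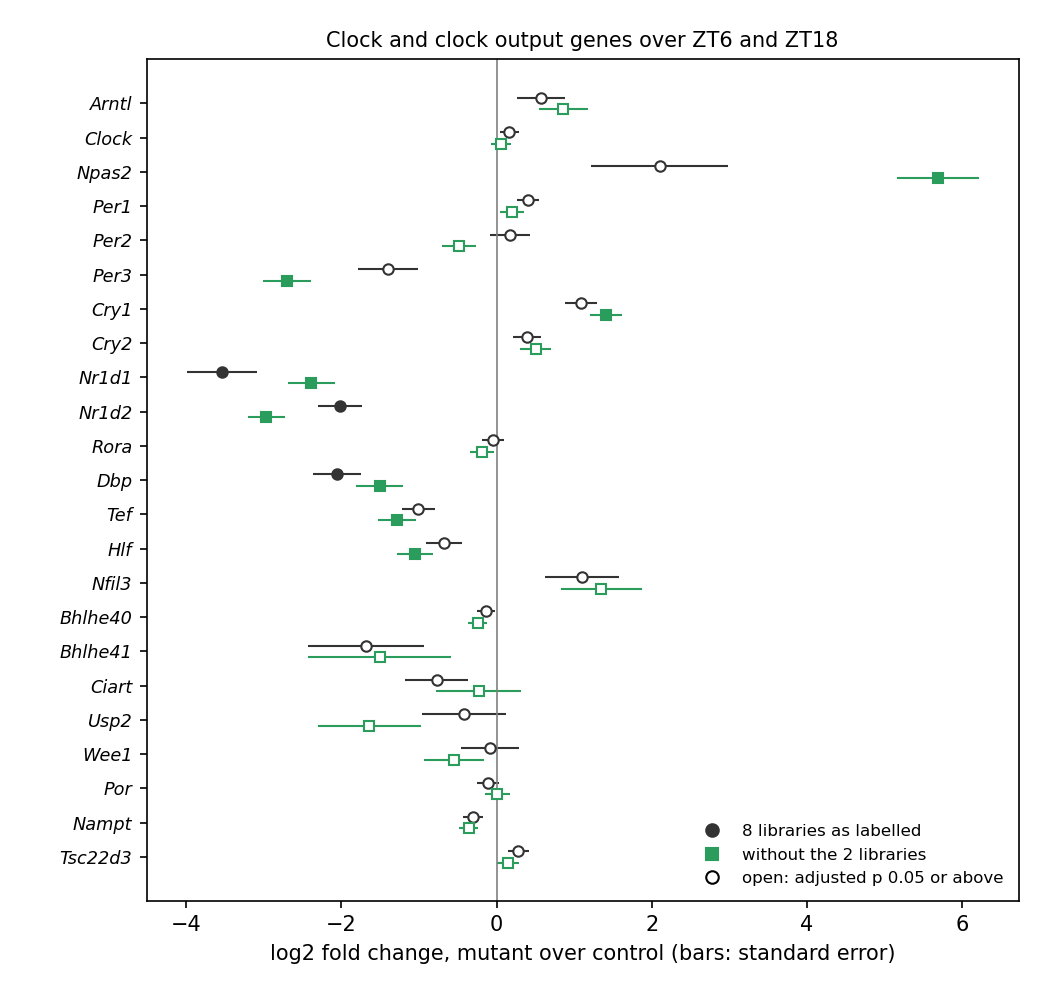
Log2 fold change, mutant over control, of 23 clock and clock output genes over ZT6 and ZT18 with standard errors, for the 8 libraries as labelled (circles) and without the 2 libraries that went against their labels (squares). Filled symbols have an adjusted p under 0.05 (edgeR): 3 circles and 8 squares, and Npas2 moved farthest, from 2.10 to 5.69. Npas2, Per3, Cry1, Hlf, Nr1d1 and Nr1d2 are among the 28 genes that placed the libraries, so that their squares are no separate evidence. Without the 2 libraries 0.252% of all genes were called higher and 0.207% lower.

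Outside the clock no gene passed the threshold over both times as labelled with edgeR. DESeq2 called Ildr2 (adjusted p 0.0153), Neat1 (0.0152), Ret (0.0153) and Cdkn1a (0.0152). With the Y-linked level as a covariate, edgeR called 0 genes. Below, 5 genes beyond the clock and its outputs are described because their values came next or because the groups did not overlap. They were chosen after their values were seen. Ildr2, a membrane protein gene of the immunoglobulin superfamily, had 654 and 541 reads at ZT6 and 721 and 411 at ZT18 in controls and 382 and 335 at ZT6 and 247 and 206 at ZT18 in mutants. Every mutant was below every control by label, and the difference was 2-fold (log2 fold change -1.0 ± 0.19, SE, adjusted p 0.0529). Neat1, a long noncoding RNA of nuclear paraspeckles, had 2372 and 2073 reads at ZT6 and 2453 and 2338 at ZT18 in controls against 4735 and 3372 at ZT6 and 3569 and 2746 at ZT18 in mutants. These groups did not overlap either (log2 fold change 0.66 ± 0.14, adjusted p 0.0751), and the highest value came from the library labelled mutant that lay with the controls. The receptor tyrosine kinase gene Ret had 205 to 403 reads in controls and 303 to 715 in mutants (adjusted p 0.0751). Cdkn1a, which encodes the cell cycle inhibitor p21, had 601 to 1609 reads in controls and 1050 to 2046 in mutants (adjusted p 0.0751). Syne1, a nuclear envelope gene, had 13440 to 19074 reads in controls, and its mutants at 18997 to 24519 were above them once depth was adjusted (adjusted p 0.222). Over all genes 299 (1.93%) had every mutant library below every control and 230 (1.48%) had it above.

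The 17 other lists, of 312 genes, cover transporters, junctions, vascular tone and stress and signalling pathways. Of these genes 0 were called with edgeR over both times, at ZT6 or at ZT18. Unadjusted, 46 had a p under 0.05 over both times (14.7%, against 5.54% of all genes), 25 higher and 21 lower. The groups did not overlap for 7 higher (2.24%) and 5 lower (1.6%), against 1.48% and 1.93% of all genes. The shares without overlap are near those of all genes, unlike the unadjusted share of 14.7%. Members without overlap are named for their values only. The 35 ABC transporters, the efflux pumps of the blood-brain barrier among them, had a median log2 fold change of 0.02. Abcb1a, which encodes P-glycoprotein, had 12462 to 14052 reads in controls and 13304 to 13868 in mutants (log2 fold change 0.04, adjusted p 1). Abcc4 had 3047 to 3781 and 2940 to 3652. Abca9, a lipid transporter of the same family, was higher in every mutant library, with 95 to 139 reads against 156 to 202 (adjusted p 0.804). Medians were 0.05 for the 18 magnesium transport genes, 0.05 for the 22 junction genes and -0.03 for the 25 nutrient transporters, among which Slc2a1, the glucose transporter, had 11393 to 15302 reads in controls and 13455 to 16794 in mutants. For vascular tone and haemostasis, Ednrb (300 to 430 against 207 to 248) was lower and Plau (31 to 35 against 49 to 96) higher in each mutant library, with adjusted p of 0.598 and 0.866. Among the antioxidant genes Sod1 was lower (678 to 1046 against 503 to 626, adjusted p 0.318) and Sod3 higher in each mutant library (359 to 462 against 481 to 635, adjusted p 0.729), and among the interferon genes Ifit3 was lower (427 to 732 against 286 to 330, adjusted p 0.117). Of the glucocorticoid list Ctgf was higher in each mutant library (274 to 469 against 514 to 780, adjusted p 0.117). So was the lipoprotein receptor gene Lrp1 (1391 to 1632 against 1852 to 2475, adjusted p 0.222), whereas Dll4, a Notch ligand gene, was lower in each (1048 to 1130 against 767 to 904, adjusted p 0.712). Notch1 (3519 to 4151 against 4117 to 5053, adjusted p 0.866) and Zfp36 (4497 to 4845 against 4735 to 5458, adjusted p 0.984) were higher in each mutant library once depth was adjusted.

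The members with most reads in the remaining lists had ranges that overlapped between the labels. Fos and Jun, immediate early genes, had 9750 to 10551 and 12081 to 16767 reads in controls and 9251 to 11649 and 13529 to 18795 in mutants, and the list had a median log2 fold change of 0.14. Of its 20 members 6 were higher and 2 lower at an unadjusted p under 0.05 (edgeR), against 5.54% of all genes. The heat shock list had 2 higher and 1 lower of 15, and the interferon and MHC class I list 0 and 3 of 15. The chaperone genes Hsp90ab1 and Hspa8 had 13028 to 19510 and 7990 to 14926 reads in controls and 12654 to 23067 and 7053 to 15718 in mutants (list median 0.06). Of the interferon and MHC class I list (median -0.20), B2m had 2333 to 3220 against 2457 to 2695 and H2-D1 2846 to 3665 against 2517 to 3431. The VEGF receptor genes Flt1 and Kdr had 36744 to 42278 and 11018 to 13021 reads in controls and 37968 to 45752 and 11314 to 13887 in mutants (list median -0.02). Tjp1, the gene of the junction scaffold ZO-1, had 11070 to 12201 against 10629 to 13230. Medians were -0.14 for the arterial and venous list, -0.21 for NAD salvage and sirtuins and -0.03 for cholesterol and fatty acid synthesis.

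Without the 2 libraries that went against their labels, 71 genes differed over both times, 39 higher (0.252%) and 32 lower (0.207%), with 24 (0.155%) at ZT6 and 17 (0.11%) at ZT18. Leaving out mutant ZT6 replicate 1 by itself gave 21 genes over both times and control ZT18 replicate 2 by itself 10, as against 3 to 10 for each of the other 6 libraries. The count of 71 is a description, because libraries were left out for their place on genes linked to genotype, which favours larger differences, and the adjusted p of the 6 libraries is to be read in that light. Of the 71, 17 were among the 28 of the other time points. Of the 54 that were not, the library labelled control ZT18 replicate 2 was nearer to the mutant mean of the 6 for 39, and the library labelled mutant ZT6 replicate 1 for 12, in values that this fit did not use. The controls of the 6 lean to ZT6 and the mutants to ZT18, but each mean gave the 2 times equal weight. The level of a single library was not adjusted for its own time point. The genes named next follow the same ranking by p as the others, 12 to a side, and were chosen after the data were seen.

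Higher in mutants in that fit, besides Npas2, Cry1, Ret and Syne1, was Mmp15. Mmp15, a membrane-bound metalloproteinase gene and 1 of the 28 genes that placed the libraries, had 531 and 677 reads at ZT6 and 529 and 1264 at ZT18 in the libraries labelled control and 536 and 1587 at ZT6 and 1231 and 1144 at ZT18 in those labelled mutant. Its 4 low values were thus 3 controls and mutant ZT6 replicate 1, and the log2 fold change was 0.63 ± 0.23 (SE, adjusted p 0.748) as labelled and 1.28 ± 0.14 (adjusted p 1.87e-05) without the 2 libraries. Col4a1, which encodes a chain of the type IV collagen of basement membranes, had 12346 and 11806 reads at ZT6 and 9224 and 14732 at ZT18 in controls and 8416 and 18962 at ZT6 and 15670 and 13585 at ZT18 in mutants. Here too control ZT18 replicate 2 was high and mutant ZT6 replicate 1 low, with a log2 fold change of 0.26 ± 0.15 (adjusted p 0.966) as labelled and 0.66 ± 0.08 (adjusted p 7.10e-05) without them. Col4a2, its partner chain, which is read from the opposite strand and overlaps Col4a1 at the start, gave 0.26 ± 0.16 as labelled (adjusted p 0.972) and 0.71 ± 0.09 without them. Npnt, an integrin ligand of basement membranes and also 1 of the 28, had 65 to 606 reads in controls and 68 to 623 in mutants, and went from 0.63 ± 0.42 (adjusted p 0.981) to 2.11 ± 0.32.

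Fam124b (23 to 253 reads in controls and 27 to 435 in mutants), Rftn2 (104 to 465 and 261 to 611) and Vwa3a (100 to 354 and 59 to 371) had log2 fold changes of 2.67, 1.80 and 1.54 without the 2 libraries. As labelled these were 1.76, 1.06 and 0.59, with adjusted p of 0.228, 0.283 and 0.955. Thra, the thyroid hormone receptor gene, had 704 to 1356 reads in controls and 742 to 1856 in mutants and gave 0.49 ± 0.20 (SE, adjusted p 0.827) as labelled and 1.00 ± 0.14 without the 2 libraries. Its 3′ end overlaps that of Nr1d1 on the opposite strand (Thra ends at 98769006 and Nr1d1 begins at 98767932 on chromosome 11). The libraries were strand-specific, but whether reads were counted by strand is not given in the sources used here.

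**Figure D4:**
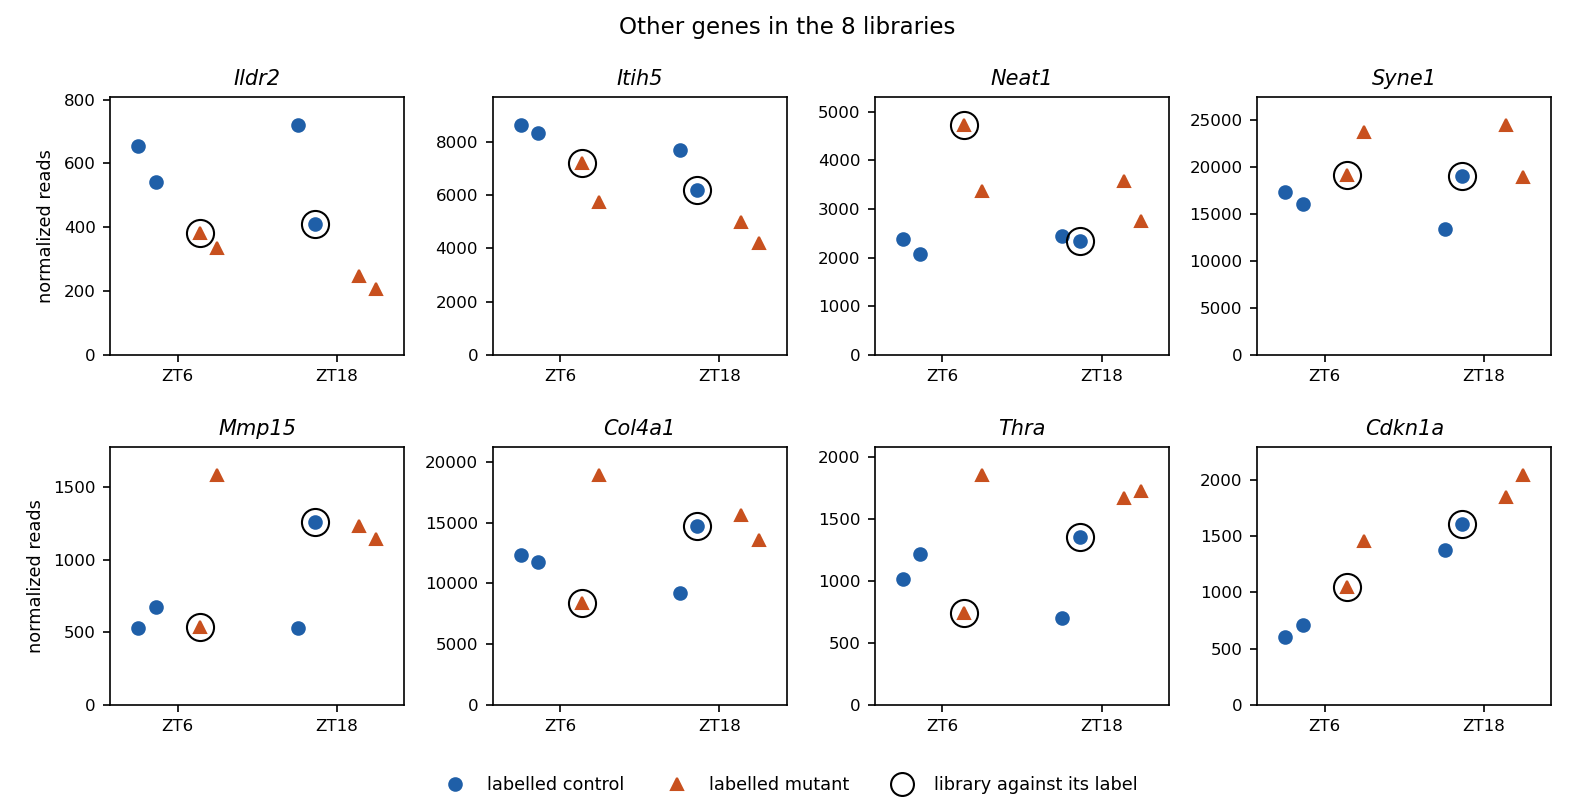
Normalized reads of 8 genes outside the clock in each library at ZT6 and ZT18, with circles for libraries labelled control, triangles for those labelled mutant and rings around the 2 libraries that lay with the other genotype. The ringed circle is high and the ringed triangle low for Mmp15, which is 1 of the 28 genes that placed the libraries, and for Col4a1 and Thra, which are not, whereas for Ildr2 and Neat1 each library lies on the side of its label.

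Lower in mutants without the 2 libraries, besides Nr1d2, Per3, Nr1d1 and Ildr2, was Fmo2, a flavin monooxygenase gene and 1 of the 28. It had 234 and 262 reads at ZT6 and 726 and 47 at ZT18 in the libraries labelled control and 505 and 56 at ZT6 and 14 and 43 at ZT18 in those labelled mutant. As labelled the log2 fold change was -1.57 ± 0.72 (SE, adjusted p 0.866), and without the 2 libraries it was -3.44 ± 0.40 (adjusted p 1.87e-05). Itih5, a hyaluronan-binding inhibitor family gene, had 8663 and 8372 reads at ZT6 and 7714 and 6220 at ZT18 in controls and 7235 and 5735 at ZT6 and 4987 and 4220 at ZT18 in mutants (-0.47 ± 0.11 as labelled, adjusted p 0.22, and -0.66 ± 0.10 without the 2 libraries). Akr1c14, an aldo-keto reductase gene of steroid metabolism, had 282 to 665 reads in controls and 173 to 403 in mutants and gave -0.94 ± 0.23 as labelled (adjusted p 0.22) and -1.35 ± 0.21 without the 2 libraries. The immediate early gene Nr4a3 (330 to 682 and 90 to 731) gave -0.24 ± 0.35 as labelled (adjusted p 1) and -1.53 ± 0.22 without them, and Lrrn3 (551 to 1560 and 486 to 981) gave -0.58 ± 0.19 (adjusted p 0.59) and -0.97 ± 0.17. Of the 13 protein-coding mitochondrial genes 10 had values below 0 as labelled, with a median of -0.11 on the log2 scale, and 0 passed (adjusted p 0.981 for mt-Cytb, 0.95 for mt-Co1 and 1 for mt-Nd4). Without the 2 libraries 12 had values below 0, with a median of -0.35, and these 3 passed, where 0.207% of all genes were called lower.

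Markers of other cells differed in this fit as well. Hbb-bs and Hba-a1, globin genes of red blood cells, had log2 fold changes of -1.2 and -1.04 without the 2 libraries, both called, and of -0.70 and -0.59 as labelled (adjusted p 0.491 and 0.727). They are 2 of the 5 red cell markers, which together took 0.0365% to 0.0794% of the reads in the 3 controls and 0.0243% to 0.0576% in the 3 mutants. The summed astrocyte markers took 0.0897% to 0.1% in these controls and 0.0787% to 0.0865% in these mutants, which do not overlap, although as labelled the ranges were 0.0847% to 0.1% and 0.0787% to 0.128%. The oligodendrocyte markers overlapped, at 0.0808% to 0.131% and 0.0812% to 0.119%. Of them Mobp fell by 0.71 without the 2 libraries (-0.35 ± 0.16, SE, adjusted p 0.875 as labelled), and Mal had 0.12 (adjusted p 0.886). The part of these cells in the other differences was not tested.

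Of the other lists, 4 genes were higher and 5 lower without the 2 libraries (2.88% of 312), where 0.252% of all genes were called higher and 0.207% lower. Cnnm2, Plat, Cdkn1a and Gkn3 are among the 28 genes that placed the libraries. The share of 2.88% thus follows in part from that choice and is no separate evidence. As labelled none of the 9 passed with edgeR (adjusted p 0.0751 to 0.864). The higher ones were Cnnm2, a magnesium transport gene (log2 fold change 1.09 ± 0.21, SE), Plat, which encodes tissue plasminogen activator (0.67 ± 0.14), Cdkn1a (0.82 ± 0.14) and Ctgf (0.93 ± 0.20). As labelled the last 3 were at 0.48, 0.68 and 0.86. The lower ones were Tfrc, the transferrin receptor gene (-0.79 ± 0.15), Sod1 (-0.67 ± 0.14), Ifit3 (-0.93 ± 0.20), Egr2 (-1.29 ± 0.27) and Gkn3, an arterial endothelial marker (-2.51 ± 0.57), and as labelled they were at -0.52, -0.54, -0.84, -0.72 and -1.85. Cnnm2 rested on the 2 libraries, with 175 and 274 reads at ZT6 and 220 and 376 at ZT18 in controls and 184 and 541 at ZT6 and 406 and 420 at ZT18 in mutants (as labelled 0.60 ± 0.24, adjusted p 0.864). No member of the ABC transporter, junction, cholesterol, amino acid response, NAD, heat shock, kinase or Wnt, Notch and VEGF lists passed.

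At ZT6 and ZT18 taken singly without the 2 libraries, where 1 group at each time holds a single library that is assumed to vary like the rest, the log2 fold changes were -3.54 and -2.38 for Nr1d2 and -3.27 and -2.17 for Per3. They were 5.35 and 6.32 for Npas2 and 1.39 and 1.16 for Mmp15. As labelled the same pairs were -1.89 and -2.18, -1.3 and -1.5, 4.35 and 0.74, and 0.83 and 0.43, and none of these 8 passed. Dbp fell by 2.25 at ZT6 (adjusted p 0.00227), while its value at ZT18 was -0.48 (adjusted p 0.718), and the difference between those values had an adjusted p of 0.447. Ttr was the 1 gene whose difference was unequal at the 2 times, at -1.82 and 0.35 (adjusted p 0.0465), against -1.27 and 0.29 as labelled (adjusted p 0.787). In the fit without the 2 libraries the choroid plexus genes Enpp2, Clic6 and Kcnj13 had values of the same signs, -1.36 and 0.25, -1.13 and 0.93, and -2.52 and 3.33, with adjusted p of 0.133, 0.546 and 0.567 for the inequality, and Enpp2 passed at ZT6 (adjusted p 0.00442). Folr1 was at -0.41 and -0.03. The part of choroid plexus RNA in the Ttr value was not tested here either.

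Whether ZT6 and ZT18 differed from the other time points was tested as a difference of genotype differences over the 24 libraries. No gene passed by edgeR's quasi-likelihood test (0 of 15493, 820 with an unadjusted p under 0.05, and 1 by DESeq2), and none passed without the 2 libraries. For Nr1d1 the log2 fold change was -3.54 at ZT6 and ZT18 and -1.64 ± 0.27 (SE) in the 16 libraries, and the difference of -1.92 ± 0.65 had an adjusted p of 0.858. Nr1d2 gave -2.02 and -1.84 ± 0.24, and Dbp gave -2.06 and -0.88 ± 0.26, with adjusted p of 1 and 0.858 for the difference. For Cry1, at 1.09 and 0.78 ± 0.16, it was 0.993. At ZT2 and ZT10 the i5 index and the genotype cannot be told apart, which bears on the values of the 16 libraries. Of the 28 genes called in the 16 libraries, 27 had the same sign at ZT6 and ZT18 as labelled.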

How the data were processed

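RNA-seq was made from CD31-sorted brain endothelial cells, 1 library per mouse. The authors aligned reads to GRCm38 with STAR 2.5.3a, counted them on Ensembl genes and deposited whole-number counts after PORT normalization, which removes the original depth from the totals. Groups came from the labels. Genes that reached 5 reads in 6 or more of the 12 mice of either genotype were tested with edgeR 4.0.16 (TMM, quasi-likelihood, R 4.3.3), with time point as a factor over both times and 1 mean per group otherwise. Adjusted p-values are Benjamini-Hochberg values over all genes, and the threshold was an adjusted p under 0.05. The SE of a fold change is its size divided by the root of F. The biological coefficient of variation was 41.6%. Sums of marker genes were taken as percent of the deposited counts of a library. Plots were drawn with matplotlib.

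Nearness to the mutant mean was judged on log2 CPM (prior count 2), with no adjustment for time point, at the midpoint of the control and mutant means. Named were the clock genes, for each test the genes with the smallest p on each side past the threshold (12 over both times, 6 otherwise), and in other lists the members past the threshold or else the 2 with most reads, whether or not the text prints their values. Genes and members were chosen with earlier results of these data known. Alternatives were other normalizations and filters, DESeq2 1.42.0, a threshold of 0.10, replicate blocks, a shared spread over all 24 libraries, the summed Y-linked level as a covariate and each library left out. Leaving out both libraries that went against their labels, and placing the libraries by the means of ZT14 and ZT22 alone, were added after the data were seen. The steps were tested on simulated data. 0 columns of other samples were left out. Coordinates are from GENCODE vM21. Some members of the lists are counted but not reported here by name.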

Additional observations from a re-analysis of the deposited data

Results flagged for a closer look

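The library labelled mutant ZT6 replicate 1 was nearer to the mutant mean for 8 of the 28 genes called in the other 16 libraries, apart from the other 3 mutant libraries at 25 to 28. The same library had the most reads of astrocyte markers among the libraries labelled mutant, 7965 against 4834 to 5306 in the other 3, and 0.128% of its reads. In both measures the gap was over the 95% limit for a group of 4, in 20 groups examined, and chance passes that limit in about 1 group in 20.

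For 2 of the named genes, in log2 CPM after TMM scaling, every library labelled mutant lay on one side of the controls at ZT6 and on the other at ZT18. For Kcnj13, a choroid plexus gene, the difference of the log2 fold changes was -6.03 (-2.13 at ZT6 and 3.90 at ZT18), on counts of 71 or less. For Pecam1, which encodes CD31, the antigen of the sort, it was -0.285 (-0.125 and 0.16), and its reads before that scaling overlapped at both times. These were singled out from library values, and over all genes the test of the difference called none.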

How the results depend on the processing

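The count over both times was 3 as labelled and kept within 1.5 times of that with other size factors, no further normalization, another filter or a spread shared by all 24 libraries. It was 62 with no filter (all 62 among the 15493 genes that pass it), 21 with DESeq2, 9 at a threshold of 0.10, 0 with the Y-linked level as a covariate and 71 without the 2 libraries that went against their labels, an alternative chosen after seeing the data. Leaving out 1 library at a time gave 3 to 21. The count of 4 at ZT6 became 1 with filterByExpr, 21 with no filter, 8 with DESeq2, 7 at 0.10, 2 with a shared spread, 1 with the Y-linked covariate and 24 without the 2 libraries, and 0 to 19 with 1 library left out. The count of 0 at ZT18 became 27 with no filter, 3 with DESeq2, 1 at 0.10 and 17 without the 2 libraries, and 0 to 6 with 1 left out. The 0 genes that differed between ZT6 and ZT18 became 10 with no filter and 1 without the 2 libraries (0 to 2 with 1 left out), and the 0 that differed from the other time points became 21 with no filter and 1 with DESeq2 (0 to 0 with 1 left out). With replicate number as a block the 5 counts were 35, 16, 19, 1 and 4, and with pairs of the same time and number as a replicate block 39 over both times. The numbers do not pair the samples, since replicate differences of 2 groups correlated at -0.04 to 0.19 over 7364 genes. Of 284 alternative values for 16 gene results, 0 changed sign, 26 lost the call and 53 gained it. The cause of these changes was not tested. With 2 mice in each group and PORT-normalized reads, genes with few reads are limited by their reads.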

Other observations

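Some genes outside the fixed lists were read after their values were seen. Spns2, which encodes the sphingosine-1-phosphate exporter of endothelial cells, had 615 and 463 reads at ZT6 and 502 and 364 at ZT18 in the libraries labelled control and 307 and 306 at ZT6 and 219 and 287 at ZT18 in those labelled mutant. Every mutant was below every control as labelled, with a log2 fold change of -0.77 (edgeR, adjusted p 0.164), and without the 2 libraries that went against their labels it was -0.91 ± 0.20 (SE, adjusted p 0.0284). Cabp1, a calcium-binding protein gene, had 21 to 69 reads in controls and 85 to 176 in mutants (adjusted p 0.222 as labelled and 0.0111 without the 2 libraries).

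Adgrg6, an adhesion G protein-coupled receptor gene, had the smallest p at ZT18, with 258 and 280 reads in controls and 70 and 44 in mutants (log2 fold change -2.21 ± 0.38, SE, adjusted p 0.0631). At ZT6 it had 142 and 179 against 132 and 186 (adjusted p 1). Its control ZT18 replicate 2 lay with the other ZT18 control.

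Lama3, a laminin chain gene, Bche, the butyrylcholinesterase gene, and Cx3cl1, the fractalkine gene, were higher in mutants without the 2 libraries, by 0.68, 0.77 and 0.69 on the log2 scale, against 0.37, 0.11 and 0.17 as labelled (adjusted p 0.866, 1 and 1). For Bche, which is among the 28 genes that placed the libraries and so no separate evidence of their place, the library labelled control ZT18 replicate 2 had 1530 reads, against 546 to 867 in the other 3 controls, and mutant ZT6 replicate 1 had 535, against 970 to 1135 in the other 3 mutants. Selenop, which encodes a selenium carrier protein, fell by 0.46 without the 2 libraries (-0.11, adjusted p 1, as labelled).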
